A study of Bos taurus with 6 samples.

Results

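The 8 genes described here supply and buffer ATP and oxygen in muscle, namely muscle, mitochondrial and brain creatine kinase (CKM, CKMT2 and CKB), myoglobin (MB), adenylate kinase 1 (AK1), the AMP deaminases AMPD1 and AMPD3, and adenylosuccinate synthase 1 (ADSS1). They were taken by name from the deposited counts, where 7 were found under these symbols and ADSS1 under its older symbol ADSSL1. All 8 were among the 15039 tested rows, of 23015 rows in all. RNA was taken from the longissimus thoracis (LT) of Hanwoo (Korean native cattle) steers, 3 with a high number of fine marbling particles (NFMP; steers 3-8, 10-8 and 10-9, aged 32.5, 33.8 and 34.5 months) and 3 with a low NFMP (steers 3-1, 3-3 and 10-16, aged 37.8, 33.7 and 35.4 months). Values by steer are given in this order. Fine marbling particles are small areas of fat in the cut surface of the rib eye, and all steers were raised conventionally on commercial feed. The paper also reports a higher marbling score and a larger rib eye area in the high-NFMP steers that were sequenced. Each library was made from 1 steer by a 3′ mRNA method, in which reads gather near the poly(A) tail. Library totals lay between 16283873 and 17192750 reads on genes.

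A contracting fibre can use ATP faster than mitochondria replace it. Creatine kinase refills ATP from phosphocreatine, with CKM at the myofibrils and CKMT2 between the mitochondrial membranes, where phosphocreatine is made. Adenylate kinase turns a pair of ADP molecules into ATP and AMP, AMP deaminase removes the AMP as IMP, and ADSS1 takes the first step from IMP back to AMP, which closes the purine nucleotide cycle. Myoglobin stores oxygen in the fibre and is the pigment that gives beef its red colour.

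Together the 8 genes held between 1.46% and 2.11% of the reads of a library (Wilson 95% intervals within 0.0069 percentage points of each share, for counting error only). MB and CKM made up between 90.7% and 94.7% of these reads, and by reads MB ranked 16 and CKM 22 among the tested rows. CKMT2 ranked 112, AK1 378, ADSS1 837, AMPD1 2119 and AMPD3 2319, whereas CKB, the form of brain and smooth muscle, ranked 10715. These ranks order read numbers and not transcript levels. All 8 slow fibre and all 9 fast fibre markers passed the filter on low counts, as did all 11 adipocyte markers. The summed level of the fibre markers lay between 9654 and 15128 CPM (reads scaled to a library of 1000000, after TMM normalization) for the slow list and between 23551 and 34623 CPM for the fast list. That of the adipocyte markers lay between 439 and 1012 CPM. Of 6 red blood cell markers 2 were tested, ALAS2 (16 to 41 reads, log2 fold change -0.26) and AHSP (16 to 25 reads, 0.29), and their adjusted p were 0.852 and 0.833 with edgeR. The haemoglobins had at most 18 reads in a library, and HBB was at 0 in steers 3-1 and 3-3, where ALAS2 had the most reads (36 and 41).

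None of the 8 genes differed between the high- and low-NFMP groups at the threshold of the study (p below 0.05 before adjustment and more than a 2-fold difference), tested with the quasi-likelihood method of edgeR, which 3.90% of all tested genes passed. None had an adjusted p below 0.05 (0.685% of all tested genes), and CKB alone had an unadjusted p below 0.05, which 11.5% of all tested genes had, and 5.73% with the higher level at high NFMP. With DESeq2 and with quantile normalization and limma, 2 of the 8 had an unadjusted p below 0.05 and none an adjusted p below 0.05. The groups did not overlap in CKB and CKMT2, 2 of 8 genes, compared with 17.1% of all tested genes. CKB was higher with high NFMP without overlap, as were 7.97% of all tested genes, and CKMT2 was lower, as were 9.16%. The median log2 fold change of the 8 genes was 0.18 and that of all tested genes was 0.02. In bulk muscle, fewer cells of a type and less RNA per cell cannot be told apart.

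**Figure D1:**
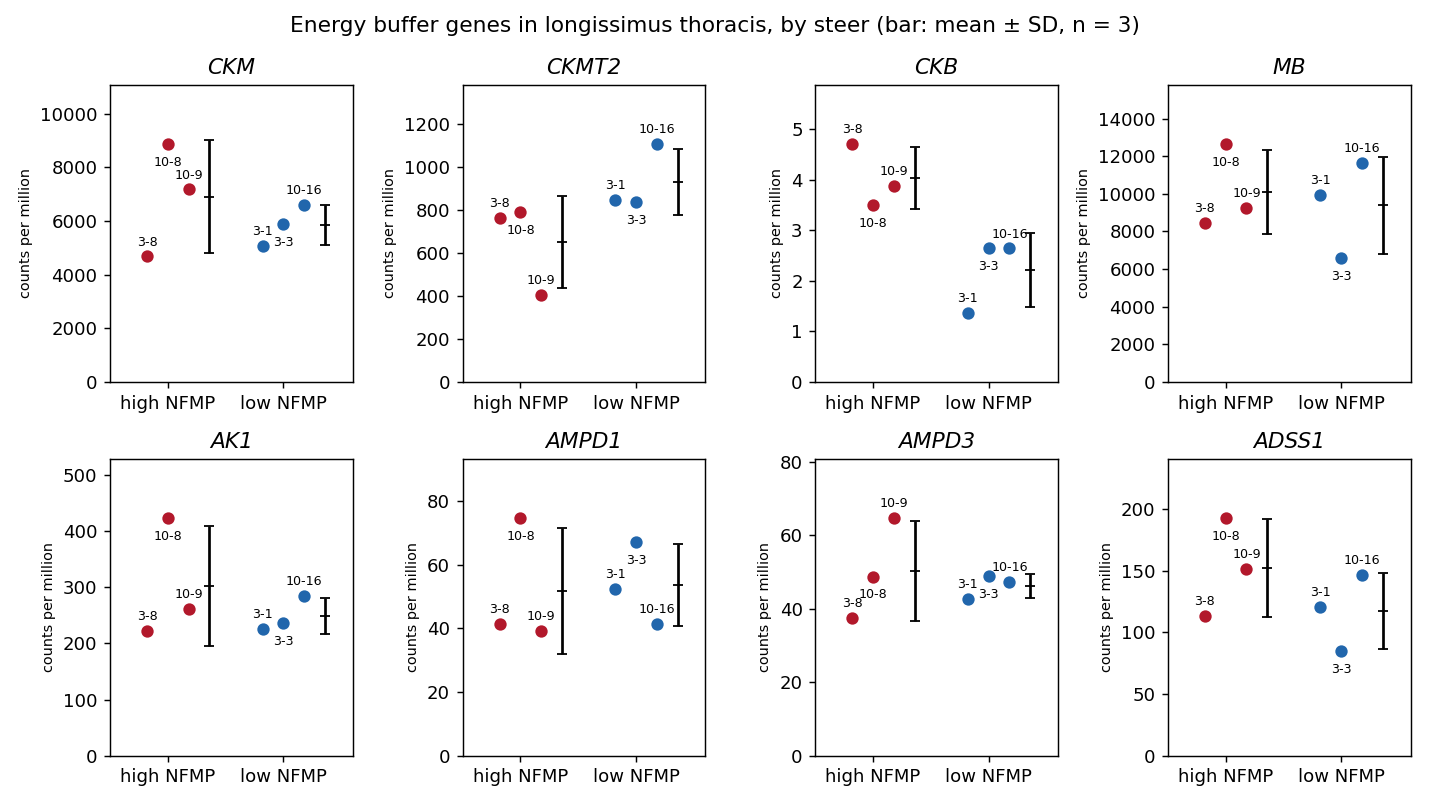
CPM (vertical axes, from 0) of the 8 energy buffer genes in each steer of the high-NFMP (red) and low-NFMP (blue) group, with the mean and SD of 3 steers as a black bar. The red points of CKB all lay above the blue ones and those of CKMT2 all below, and the groups overlapped in the other 6 genes.

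CKM carried most of the creatine kinase reads. Its level was 4683, 8864 and 7183 CPM with high NFMP, and 5078, 5894 and 6598 CPM with low NFMP. The high-NFMP group held both the highest steers (10-8 and 10-9) and the lowest (3-8), so the groups overlapped. The means were 6909.7 ± 2104 (SD, n = 3) and 5857 ± 761 CPM (SD, n = 3), a log2 fold change of 0.24 (SE 0.25, edgeR adjusted p = 0.749). The 95% interval of that log2 fold change ran from -0.29 to 0.77, so a 2-fold difference in either direction lay outside it. The value depended on single steers. Without steer 3-8 the log2 fold change was 0.45 (edgeR unadjusted p = 0.0484 and adjusted p = 0.327), and without steer 10-8 it was 0.06.

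CKMT2, which hands mitochondrial ATP to creatine, was the member with the lowest log2 fold change. It was at 764, 789 and 405 CPM with high NFMP, and at 848, 837 and 1106 CPM with low NFMP. No high-NFMP steer reached the lowest low-NFMP steer, and steers 10-9 and 10-16 stood at the ends. The means were 653 ± 215 and 930.5 ± 152 CPM (SD, n = 3 each), a log2 fold change of -0.51 (SE 0.25, edgeR unadjusted p = 0.059 and adjusted p = 0.461), with a 95% interval from -1.05 to 0.02. Of 14 alternative settings, 6 brought the unadjusted p of CKMT2 under 0.05, among them DESeq2 and quantile normalization with limma. The adjusted p was nowhere under 0.303. Without steer 10-9 the log2 fold change was -0.25, and without steer 10-16 it was -0.34.

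CKB, a creatine kinase of brain, smooth muscle and many other tissues, was counted 78, 53 and 65 times with high NFMP, and 24, 48 and 44 times with low NFMP. At these counts the counting error alone was 13.9% of the mean. Scaled by library, CKB was at 4.71, 3.51 and 3.88 CPM against 1.37, 2.64 and 2.64 CPM, so all high values exceeded all low ones, and steer 3-1 was lowest. The log2 fold change was 0.86 (SE 0.36, edgeR unadjusted p = 0.0314 and adjusted p = 0.379), with a 95% interval from 0.09 to 1.63. It stayed positive in all 14 alternative settings, 10 of which had an unadjusted p under 0.05. The groups did not overlap, which left little room for a change of sign when a steer was left out. With age as a term the log2 fold change was 0.46 (edgeR unadjusted p = 0.314), and the low-NFMP steer with the lowest CKB, 3-1, was also the oldest steer. Without steer 3-3 or 10-16 it was 1.00 or 1.03, past the fold threshold of the study.

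Cells other than fibres also express CKB, so their markers are given beside it. All 11 adipocyte markers had a log2 fold change above 0 (median 0.61), 6 had an unadjusted p below 0.05 and none an adjusted p below 0.05 (lowest 0.178) with edgeR. With DESeq2 these counts were 6 and 1 (FASN), and with limma 6 and 0. FASN, the fatty acid synthase, passed the threshold of the study with all 3 tools (log2 fold change 1.11, edgeR adjusted p = 0.178). The summed adipocyte level was 1012, 647 and 439 CPM with high NFMP and 464, 514 and 455 CPM with low NFMP, so it was highest in steer 3-8, as was CKB, but lowest in 10-9, where CKB ranked next. The 4 smooth muscle markers summed to between 72.4 and 119 CPM in the high-NFMP and between 65.8 and 95.2 CPM in the low-NFMP group, and the 5 Schwann cell markers to between 78.9 and 113 CPM and between 55.1 and 84.9 CPM. MBP of the Schwann list had a log2 fold change of 0.76 (edgeR unadjusted p = 0.0095 and adjusted p = 0.251). The summed levels of the 6 fibroblast, 5 endothelial and 5 macrophage and leukocyte markers overlapped between groups. Among them AIF1, a macrophage marker, passed the threshold of the study with edgeR and DESeq2 but not with limma (log2 fold change 1.04, edgeR adjusted p = 0.388) and was highest in steer 3-8 (6.94 CPM), and the fibroblast marker PDGFRA was at -0.51 (edgeR unadjusted p = 0.0391 and adjusted p = 0.408). The macrophage and leukocyte list had a median of 0.26, with 3 markers above 0 and 2 below. In the fibroblast list the median was 0.20, with 4 markers above 0 and 2 below. The part of these cells in the CKB values was not tested.

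**Figure D2:**
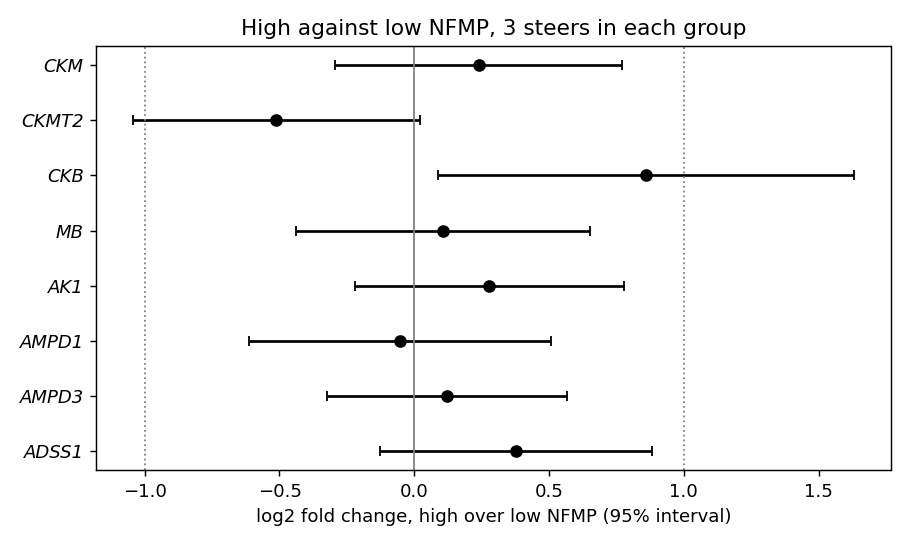
Log2 fold change (horizontal axis) of high over low NFMP for the 8 genes with its 95% interval, where dotted lines mark a 2-fold difference. Of the intervals, that of CKB alone excluded 0, from 0.09 to 1.63, and those of CKB and CKMT2 reached past a dotted line.

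Ratios within a library do not depend on how libraries are scaled. Of all creatine kinase reads, CKMT2 held 14.01%, 8.17% and 5.34% with high NFMP, and 14.3%, 12.4% and 14.4% with low NFMP (Wilson 95% intervals within 0.23 percentage points). Steers 10-8 and 10-9 lay below the rest, whereas steer 3-8 was among the low-NFMP values. The log2 ratio of CKMT2 to CKM was -3.42 ± 0.77 in the high-NFMP group and -2.66 ± 0.14 in the low-NFMP group (SD, n = 3 each), a difference of -0.76 (exact permutation test, two-sided p = 0.2, adjusted p = 0.6 over 4 ratios). With 3 steers against 3 this test cannot give a p below 0.1. Single steers moved the difference, which was -0.39 without 10-9 and -1.16 without 3-8. CKB held between 0.0363% and 0.0863% of the creatine kinase reads in the high-NFMP steers and between 0.0231% and 0.0393% in the low-NFMP steers, and its log2 ratio to CKM differed by 0.72 (exact permutation test, p = 0.3, adjusted p = 0.6). That difference was 0.34 without steer 3-8 and 1.02 without steer 10-8.

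**Figure D3:**
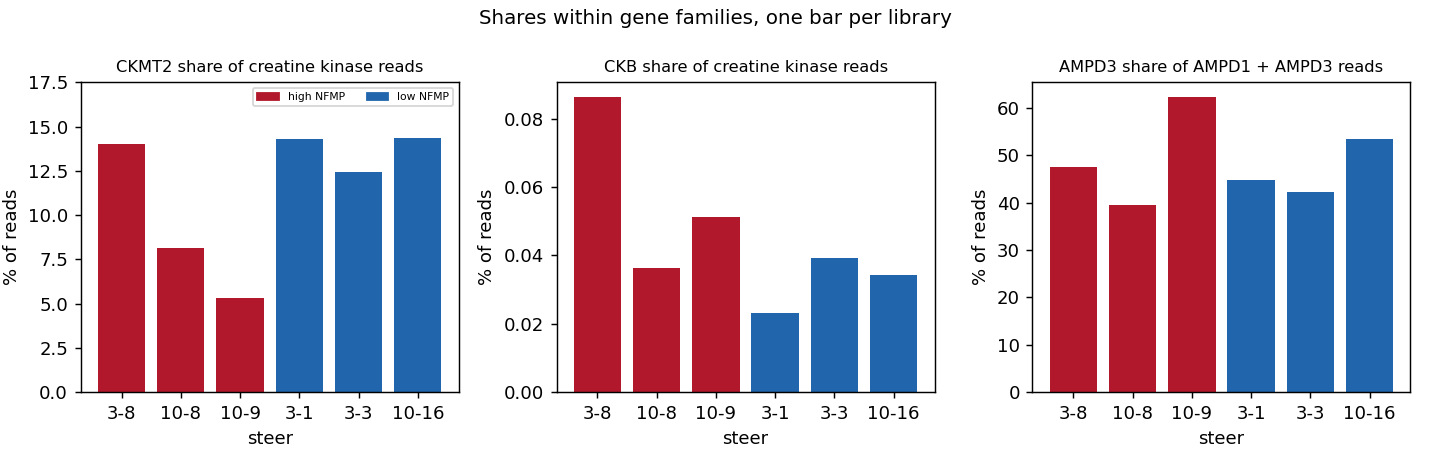
Share of reads (%, vertical axes from 0) within gene families for each library, high NFMP in red and low NFMP in blue. Steers 10-8 and 10-9 had the lowest CKMT2 shares, at 8.17% and 5.34%, steer 3-8 the highest CKB share, at 0.0863%, and steer 10-9 the highest AMPD3 share, at 62.3%.

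MB was at 8438, 12633 and 9240.1 CPM with high NFMP, and at 9951, 6563 and 11630.5 CPM with low NFMP. The groups overlapped throughout, with steer 10-8 highest and steer 3-3 lowest. The means were 10104 ± 2227 and 9381 ± 2581 CPM (SD, n = 3 each), a log2 fold change of 0.11 (SE 0.26, edgeR adjusted p = 0.899) with a 95% interval from -0.44 to 0.65. Its direction was not stable, since 4 of the 14 alternative settings gave a value below 0, down to -0.15 after quantile normalization with limma. The log2 ratio of MB to CKM was 0.57 ± 0.25 and 0.65 ± 0.43 (SD, n = 3 each; exact permutation test, p = 0.9, adjusted p = 0.9).

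AK1, the cytosolic adenylate kinase of muscle, was at 222, 423 and 261 CPM with high NFMP, and at 226, 236 and 285 CPM with low NFMP. Steer 10-8 stood above all others, and the remaining high-NFMP values lay within or under the low-NFMP range. The log2 fold change was 0.28 (SE 0.23, edgeR adjusted p = 0.682), and -0.01 without steer 10-8.

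AMPD1, the AMP deaminase of skeletal muscle fibres, was at 41.3, 74.7 and 39.2 CPM with high NFMP, and at 52.5, 67.1 and 41.3 CPM with low NFMP. In both groups there was a steer well above its lowest, and the groups overlapped. AMPD1 had the log2 fold change nearest to 0, at -0.05 (SE 0.26, edgeR adjusted p = 0.956), with a 95% interval from -0.61 to 0.51. AMPD3, an AMP deaminase of red blood cells that muscle also expresses, was at 37.5, 48.8 and 64.7 CPM against 42.7, 48.9 and 47.2 CPM. Its spread was wide in the high-NFMP group, where steers 3-8 and 10-9 held the ends, and narrow in the low-NFMP group (coefficients of variation 27.2% and 6.99%). The log2 fold change of AMPD3 was 0.12 (SE 0.21, edgeR adjusted p = 0.856). AMPD3 had between 622 and 1084 reads in a library, and the part of red blood cells in them was not tested. AMPD3 overlaps RNF141 in the RefSeq gene table, and RNF141 was counted between 203 and 317 times in a library. How many reads were shared was not tested.

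AMPD3 held 47.6%, 39.5% and 62.3% of the reads of both AMP deaminases with high NFMP, and 44.8%, 42.2% and 53.4% with low NFMP (Wilson 95% intervals within 2.7 percentage points). The share was highest in steer 10-9 and next in 10-16, so neither group stood apart. The log2 ratio of AMPD3 to AMPD1 differed by 0.18 between groups (exact permutation test, p = 0.7, adjusted p = 0.9).

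ADSS1, the muscle form of adenylosuccinate synthase, was at 113, 193 and 152 CPM with high NFMP, and at 121, 84.9 and 147 CPM with low NFMP. The groups overlapped, with steers 10-8 and 10-9 highest and 3-3 lowest. The log2 fold change was 0.38 (SE 0.24, edgeR adjusted p = 0.574), with a 95% interval from -0.13 to 0.88. It was positive in all 14 alternative settings, and ranged from 0.18 with the number that begins the steer label as a term to 0.65 with age as a term (edgeR unadjusted p = 0.0463).

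**Figure D4:**
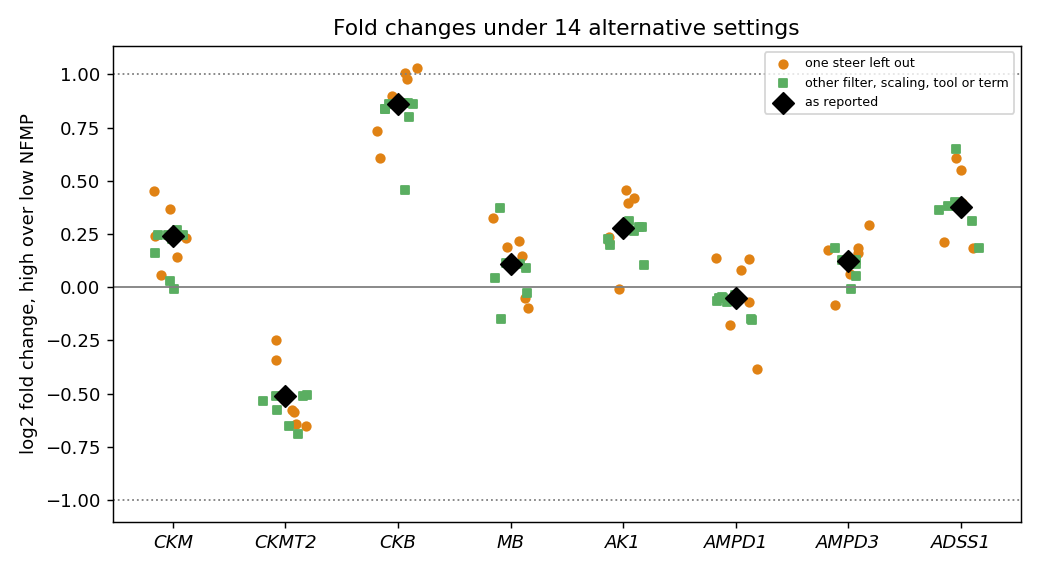
Log2 fold change of high over low NFMP (vertical axis) for each gene as reported (black) and under 14 alternative settings, 6 of which left out a steer (orange). CKB, ADSS1 and CKMT2 kept their sign in all of them, and dotted lines mark a 2-fold difference, which CKB passed without steer 3-3 or 10-16. In CKB and CKMT2 the groups did not overlap, which left little room for a change of sign when a steer was left out.

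Among the members, CKM alone had exactly the steer order of a listed fibre marker. CKM put the steers in the order 10-8, 10-9, 10-16, 3-3, 3-1 and 3-8, which was also the order of MYH7, the myosin heavy chain of slow fibres. MYH7 was at 3890.4, 3369, 2941, 2282, 2052 and 1825 CPM in that order. No other marker of the slow or fast list had this order. Over the 6 libraries, which share groups and depth, the Pearson coefficient of CKM ran from -0.35 (MYL3) to 0.98 (MYH7) in the slow list and from 0.09 (MYH1) to 0.88 (ACTN3) in the fast list. AK1 had the same order but for steers 10-9 and 10-16, which changed places. AMPD1 ranked steers 10-8 and 3-3 highest and 10-16 and 10-9 lowest, as did MYH1, a heavy chain of fast fibres, at 7960 and 7496 CPM in the former and 3538 and 3246 CPM in the latter. MYH2, another fast heavy chain, was highest in steer 10-16, and the coefficient of AMPD1 ran from -0.19 (MYH2) to 0.91 (MYH1) in the fast list and from -0.02 (TNNT1) to 0.63 (TNNC1) in the slow list. AMPD3 was highest in steer 10-9, as were the fast troponin TNNT3 (2564 CPM) and the slow troponin TNNT1 (843 CPM), and its coefficient ran from -0.08 (MYL3) to 0.96 (TNNT1) in the slow list and from -0.37 (MYH1) to 0.93 (ATP2A1) in the fast list. MB and ADSS1 both had steer 10-8 highest and 3-3 lowest. Both fibre lists had summed levels that overlapped between groups, with median log2 fold changes of 0.05 for the slow and 0.08 for the fast list and no marker at an adjusted p under 0.05 with edgeR or limma. MYL3, a slow marker, was the only one with an unadjusted p under 0.05 (log2 fold change -0.78, edgeR adjusted p = 0.145), and with DESeq2 its adjusted p was under 0.05. The part of fibre composition in these levels was not tested.

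**Figure D5:**
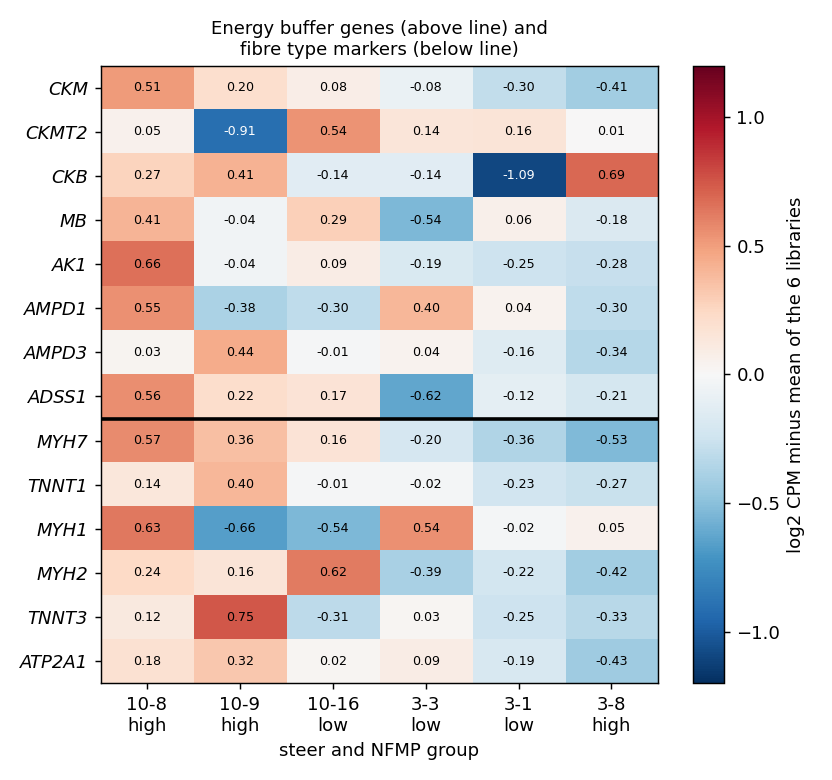
Deviation of log2 CPM from the mean of the 6 libraries (colour and printed value) for the 8 genes and, under the line, 6 fibre markers, with steers ordered by CKM. CKM ran from 0.51 to -0.41 and MYH7 from 0.57 to -0.53 across the same order, and in steers 10-8 and 3-3 AMPD1 was at 0.55 and 0.40 and MYH1 at 0.63 and 0.54.

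The first number of the steer label, whose meaning the labels do not give, also went with some members. In CKM, AK1 and ADSS1, each steer whose label begins with 10 lay above each steer whose label begins with 3. For CKM these were 6598 to 8864 CPM against 4683 to 5894 CPM, and for ADSS1 147 to 193 CPM against 84.9 to 121 CPM. How many of all tested genes split in this way was not counted. Each number held steers of both groups, but steer 3-8 was the only high-NFMP steer of number 3 and steer 10-16 the only low-NFMP steer of number 10. Within number 3 the mean log2 level of CKM was lower in the high-NFMP steer than in the low-NFMP steers (difference -0.22), and within number 10 it was higher (0.27). The same was so for AK1 (-0.06 and 0.22), AMPD1 (-0.52 and 0.39) and AMPD3 (-0.28 and 0.25). CKMT2 was lower in the high-NFMP steers within both numbers (-0.14 and -0.97), and CKB (1.31 and 0.48) and ADSS1 (0.16 and 0.22) were higher within both. For CKMT2 and CKB these signs were fixed, since the groups did not overlap in either gene. MB was at 0.06 and -0.11. With this number as a term in the fit, the log2 fold change was 0.03 for CKM (0.24 without the term), 0.10 for AK1 (0.28), 0.18 for ADSS1 (0.38) and 0.86 for CKB (0.86).

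Among all genes with at least 100 reads on average, the 3 most like each member across the 6 libraries were found by the Pearson correlation of log2 CPM. The closest had coefficients between 0.986 and 0.997 for every member, over 6 libraries that share groups and depth, so values of this size were common to all 8. Among the closest to CKM were MRPS24 and LOC616200. For CKMT2 they were SIX4, RNF144B and C8H9orf40, and for MB they were ATF4, RAB11B and GSTA4. VRK3, SHISA4 and PYGM, the muscle glycogen phosphorylase, were closest to AK1, and BFAR, DDAH1 and the fast myosin heavy chain MYH4 to AMPD1. GDF1, SDHB, a subunit of succinate dehydrogenase, and TCP1 were closest to AMPD3, and MEX3D, WDTC1 and LOC100616098 to ADSS1. For CKB they were FAM217B, C18H19orf12 and PPP1R3D.

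Of 56 tested genes in 8 lists, none was higher and 1 was lower (MYOG) at the study's threshold with edgeR, compared with 3.90% of all tested genes in either direction. With edgeR 7 had an unadjusted p under 0.05, against 11.5% of all tested genes, and none an adjusted p under 0.05. With limma these counts were 9 and 0, and SLC25A5 and SRF passed the study's threshold in place of MYOG. With DESeq2 they were 7 and 4, the 4 being MYOG, PPARGC1A, PPAT and SLC25A6, where 287 of all 15039 tested genes had such an adjusted p. Among creatine synthesis and transport genes, 3 of 4 were tested and none passed. GAMT, the second enzyme of creatine synthesis, was the most counted, at 31.6 ± 7.25 and 32.1 ± 1.44 CPM (SD, n = 3 each), and the creatine transporter SLC6A8 was at 6.91 and 6.09 CPM. CKMT1A, the other mitochondrial creatine kinase, had at most 1 read in a library. None of the 8 other adenylate kinases passed. AK4, a mitochondrial form, had a log2 fold change of 0.55 (edgeR unadjusted p = 0.0280 and adjusted p = 0.365). Of 12 tested genes of AMP, IMP and adenosine metabolism none passed. XDH, which oxidises hypoxanthine and xanthine to uric acid in purine breakdown, was the most counted (log2 fold change 0.07). ADA, which deaminates adenosine, had 358, 212 and 369 reads with high NFMP and 302, 200 and 171 reads with low NFMP, a log2 fold change of 0.58 (edgeR unadjusted p = 0.0377 and adjusted p = 0.407). ADSL, the enzyme after ADSS1 in the cycle, was at -0.28 (edgeR adjusted p = 0.654) and AMPD2 at -0.31 (edgeR adjusted p = 0.635).

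Of 10 de novo purine synthesis genes none passed the threshold, and the most counted, GMPS, had a log2 fold change of -0.01. PPAT, which catalyses the first committed step of that pathway and is named here after its values were seen, was counted 268, 251 and 261 times with high NFMP, and 577, 487 and 478 times with low NFMP. The groups lay far apart for their spread, at 16.1 ± 0.51 and 29.5 ± 3.09 CPM (SD, n = 3 each). The log2 fold change was -0.87 (SE 0.19, edgeR adjusted p = 0.0521), and it stayed between -0.94 and -0.75 over 14 alternative settings, with adjusted p between 0.00555 and 0.388.

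ADP and ATP cross the inner mitochondrial membrane through the translocases SLC25A4, SLC25A5 and SLC25A6. SLC25A4, the muscle form, was by far the most counted, at 1682 ± 243 and 1776 ± 237 CPM (SD, n = 3 each), a log2 fold change of -0.08 (edgeR adjusted p = 0.907). SLC25A6, named after its values were seen, was counted 994, 1090 and 1139 times with high NFMP against 468, 706 and 673 times with low NFMP. The lowest high-NFMP steer still exceeded the highest low-NFMP steer. Its log2 fold change was 0.92 (SE 0.20, edgeR adjusted p = 0.0541; range over 14 alternative settings 0.75 to 1.06, adjusted p 0.00508 to 0.396). SLC25A5 had 18, 18 and 6 reads with high NFMP and 31, 32 and 31 reads with low NFMP, again without overlap but in the other direction (log2 fold change -1.03, edgeR unadjusted p = 0.056 and adjusted p = 0.453). Of the 6 genes of this exchange none passed the threshold of the study with edgeR or DESeq2, and SLC25A5 passed it with limma. SLC25A6 passed it with edgeR when steer 10-16 was left out (1.06).

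In the oxygen lists, 7 of 8 sensing genes were tested and none passed. EGLN1, an oxygen-dependent hydroxylase that marks HIF for breakdown and the most counted of the list, was at 119 ± 17.0 and 158 ± 15.7 CPM (SD, n = 3 each; log2 fold change -0.41, edgeR unadjusted p = 0.0413 and adjusted p = 0.413). HIF1A was at 47.0 and 47.5 CPM. Cytoglobin (CYGB) was the only other globin tested, at a log2 fold change of 0.59 (edgeR adjusted p = 0.476). Among 9 transcription factors of muscle and oxidative genes, MEF2C was the most counted (log2 fold change -0.03). Myogenin (MYOG), a factor of muscle differentiation, was the gene past the threshold with edgeR and DESeq2, with 615, 463 and 605 reads at high NFMP and 1679, 1728 and 604 reads at low NFMP. Steer 10-16 lay among the high-NFMP steers, so the groups overlapped. Its log2 fold change was -1.13 (SE 0.32, edgeR adjusted p = 0.186). It lost the call in 4 of 14 alternative settings, at -0.75 with the label number as a term, -0.99 with quantile normalization and limma, and -0.93 without steer 3-1 or without steer 3-3. Without steer 10-16 it was -1.43 (edgeR adjusted p = 0.0188). PPARGC1A, a coactivator of mitochondrial genes named after its values were seen, was at 239 ± 67.6 and 126 ± 37.9 CPM (SD, n = 3 each; log2 fold change 0.92, edgeR adjusted p = 0.145). Its lowest high-NFMP steer (3-8) and its highest low-NFMP steer (3-1) were both at 169.6 CPM. Its log2 fold change passed 1 with age as a term (1.36), without steer 3-8 (1.12) and without steer 3-1 (1.196), and ranged down to 0.75 without steer 10-8.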

How the data were processed

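Gene expression was measured in LT muscle by 3′ mRNA sequencing (single-end 75-bp reads), and the authors deposited raw read counts per gene symbol, 1 file per steer. The methods name Tophat2 with HTSeq in one place and Bowtie2 with unique and multiple alignments in another, and the submitters' processing notes name Bowtie2 and bedtools. The sources used here do not say which of them gave the counts or whether strand was used, so genes of similar or overlapping sequence may share reads. Quantile normalization, named in the methods, is not in these values.

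Differences were tested with edgeR 4.0.16 under R 4.3.3 (default filter with minimum count 10 and minimum total 15, TMM factors between 0.915 and 1.083, robust quasi-likelihood test, Benjamini-Hochberg adjustment over 15039 rows). CPM are counts scaled to a TMM-normalized library of 1000000, and standard errors were derived from the F statistic. Groups came from the labels. Separate animals gave each library. The 8 genes were matched by symbol or by synonym in the table of RefSeq genes for ARS-UCD2.0, and of 63 context genes 61 were matched. The methods name another assembly, so no coordinates are given. The members and lists were chosen with earlier results of these data known. Genes named beside the members were, by rule, context genes past a threshold, the most counted gene of a list and the 3 genes most like each member (prior count 2), and the others were named after their values were seen. Of the genes this rule names, 2 are not reported here. Other settings tried were all rows without a filter, a minimum of 10 counts per library, RLE factors, library totals, DESeq2 1.42.0, quantile normalization of log2(count + 1) with limma 3.58.1, a term for age or for the label number, and omission of each steer in turn. The values within each label number were added after seeing the data. The procedures were tested on simulated counts. Reads carry no molecular identifiers, so the Wilson intervals of shares cover counting error only, whereas those of fold changes include the spread between steers.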

Additional observations from a re-analysis of the deposited data

How the results depend on the processing

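No member reached an adjusted p below 0.05 in any of the 14 settings. With a steer left out, between 0 and 1 member passed the p and fold change threshold, the 1 being CKB without steer 3-3 (log2 fold change 1.00) or 10-16 (1.03), and between 0.60 and 1.03 was the range of CKB over the 6 steers. After quantile normalization with limma, CKM was at -0.0088 and MB at -0.15, and with the first number of the label as a term MB was at -0.029 and AMPD3 at -0.010. With a steer left out, the log2 fold change ranged from -0.10 to 0.33 for MB, from -0.011 to 0.46 for AK1, from -0.38 to 0.14 for AMPD1 and from -0.085 to 0.29 for AMPD3. The log2 ratio of AMPD3 to AMPD1 ranged from -0.19 to 0.48 and that of MB to CKM from -0.32 to 0.088. The cause of these reversals was not tested. Over all genes, 969 passed the p and fold change threshold without a filter and 364 with at least 10 counts in every library, against 586. At an adjusted p below 0.05 there were 240 without a filter, 287 with DESeq2 and 31 with age as a term, against 103, and between 28 and 82 with a steer left out. Of the context and marker genes, 3 were called and between 2 and 6 with a steer left out. CKB had 24 to 78 reads per library, with a counting error of 13.9% beside a biological coefficient of variation of 29.5%.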
